A study of Mus musculus with 24 samples.

Results

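The chromatin-to-total ratio of a gene sets its RNA level in the chromatin fraction against its level in RNA of whole cells. Here the ratio was compared between 2 states of the mouse embryonic stem cell line E14, to find where a change in chromatin RNA was or was not matched in steady-state RNA. The comparison used 12 of the 24 libraries of the series, those labelled as chromatin or as total RNA, in 4 groups of 3. Epiblast-like cells (EpiLC) were plated on gelatin in N2B27 medium with 20 ng/ml activin A and 12 ng/ml bFGF and collected on day 3. Naive embryonic stem cells (nESC), from which the EpiLC were made, were kept in serum-free N2B27 medium with LIF, the MEK inhibitor PD0325901 and the GSK3 inhibitor CHIR99021. Both states come from the same line, and the labels do not say whether the 3 libraries of a group came from separate cultures, so the p-values may measure technical spread alone. Fractions were prepared from trypsinized cells, with nuclei spun through a sucrose buffer, and the labels do not say how cells were collected for total RNA. The other 12 libraries, from nucleoplasm and cytoplasm, entered the filter on low values and an alternative fit. Otherwise they are used below only as values beside a result.

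RNA bound to chromatin is rich in transcripts that are being made, are not yet fully spliced or are retained there, whereas total RNA also holds the finished messages in the cytoplasm and so depends on how long they last. Messages of immediate early genes are known to be short-lived, and AU-rich elements in their 3′ untranslated regions bind proteins such as Zfp36 that speed decay. During the passage from naive to formative pluripotency the naive factors, among them Klf4, Esrrb and Zfp42, are switched off, and genes such as Dnmt3b, Otx2 and Fgf5 are switched on.

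The AU-rich nonamer TTATTTATT (coding strand, written as DNA) is shown at 1 place in the 3′ untranslated region of 4 decay-related or immediate early genes whose ratio was lower in EpiLC, and of Nanog, whose ratio change was below the threshold. Each line is 30 bases read 5′ to 3′ from the GENCODE M21 annotation on GRCm38, with the nonamer in capitals; it lies at chr12:85477103-85477132 (plus strand) in Fos, chr17:26506158-26506187 (minus) in Dusp1, chr7:28376950-28376979 (minus) in Zfp36, chr17:84184913-84184942 (minus) in Zfp36l2 and chr6:122713630-122713659 (plus) in Nanog.
Fos: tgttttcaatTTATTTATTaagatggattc
Dusp1: gagctggtccTTATTTATTtaacacccccc
Zfp36: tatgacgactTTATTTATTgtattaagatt
Zfp36l2: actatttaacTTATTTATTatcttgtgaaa
Nanog: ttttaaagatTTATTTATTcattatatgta
The nonamer was searched on the coding strand alone and holds the shorter element ATTTA, which 65.4% of the regions have. It was found in 7.07% of the 10622 tested coding genes with an annotated 3′ untranslated region, and in 9 of the 34 tested genes of the immediate early list (26.5%). Its share was 9.67% among genes with a lower ratio led by total RNA and 5.51% among those with a higher ratio led by total RNA. The regions of these sets differ in length, with medians of 1022 and 542 bases, beside 931 over all genes, and per kilobase they held 1.59 and 1.65 ATTTA elements, beside 1.83 over all genes. The genes shown were picked from 16 named genes with the nonamer. Among the others, Krt7 with 4 copies and Nop58 with 3 were not called. Id3, Fosb and Ccn1, which are on the immediate early list and had a lower ratio, held 0. A match is a description of the sequence and not evidence of a site in use.

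The ratio changed in 1147 genes, 9.8% of the 11704 that had a mean of at least 1 FPKM in each table. FPKM are fragments scaled to transcript length and library, and the change tested is the EpiLC difference of chromatin and total RNA minus the nESC difference, on the log2(FPKM + 0.5) scale with each library centred on its median. A gene was called at an adjusted p under 0.05 and an absolute value of at least 1. The ratio was higher in EpiLC in 439 genes (3.75%) and lower in 708 (6.05%). Of the calls 38.3% were higher. At an unadjusted p under 0.05 in limma 4989 genes passed (42.6%), 2306 with a higher (19.7%) and 2683 with a lower ratio (22.9%), the background of the unadjusted counts given for gene lists. Scaling every library to one FPKM sum put the median interaction of all genes at -0.175, beside -0.02 here, and gave 280 higher and 1070 lower, a share of 20.7%. Quantile normalization, which gives all libraries one distribution, left 434 higher and 449 lower, a share of 49.2%. In 1092 of the called genes (9.33% of those tested) the 9 pairs of EpiLC libraries lay apart from the 9 pairs of nESC libraries, and so did those of 3923 of all tested genes (33.5%).

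The 2 parts of the change are the difference between EpiLC and nESC in chromatin RNA and that in total RNA, which are untested values since each state's table has its own normalization. In chromatin RNA 997 genes (8.52%) were higher in EpiLC by 2-fold or more and 802 (6.85%) were lower; in total RNA 1624 (13.9%) were higher and 1167 (9.97%) lower. Both passed 2-fold upward in 712 genes and downward in 558, while 283 were higher and 240 were lower in chromatin RNA with total RNA within 2-fold. Total RNA alone passed 2-fold upward in 908 and downward in 607 genes. The spread over genes was 0.82 in chromatin RNA and 1.01 in total RNA (SD, log2), and the correlation of both differences was 0.777 across the 11704 genes, which are not independent replicates.

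Of the called genes, 159 (1.36% of those tested) were led by chromatin RNA, with the chromatin difference at least 2-fold and larger than the total difference, 74 with a higher and 85 with a lower ratio. In 711 genes (6.07%) the total RNA difference was the larger one by the same rule, and 277 fell under neither rule. In 60 genes (0.513%), most of them counted above as well, both differences were at least 0.58 on the log2 scale and ran in opposite directions. A matched change, at least 2-fold the same way in both with the 95% interval of the interaction inside -1 to 1, was found in 638 genes (5.45%), of which 337 were higher in EpiLC and 301 lower. Among the 454 genes with a lower ratio led by total RNA, the median difference was 0.30 in chromatin, 0.77 in nucleoplasm, 0.84 in cytoplasm and 1.62 in total RNA. In the 257 with a higher ratio led by total RNA the medians were -0.46, -1.31, -1.40 and -1.79 in the same order. The cytoplasm, which the classes did not use, lay closer to total RNA than to chromatin RNA in 61.9% of those 257 genes and in 34.1% of those 454, against 51.6% of all genes tested.

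**Figure D1:**
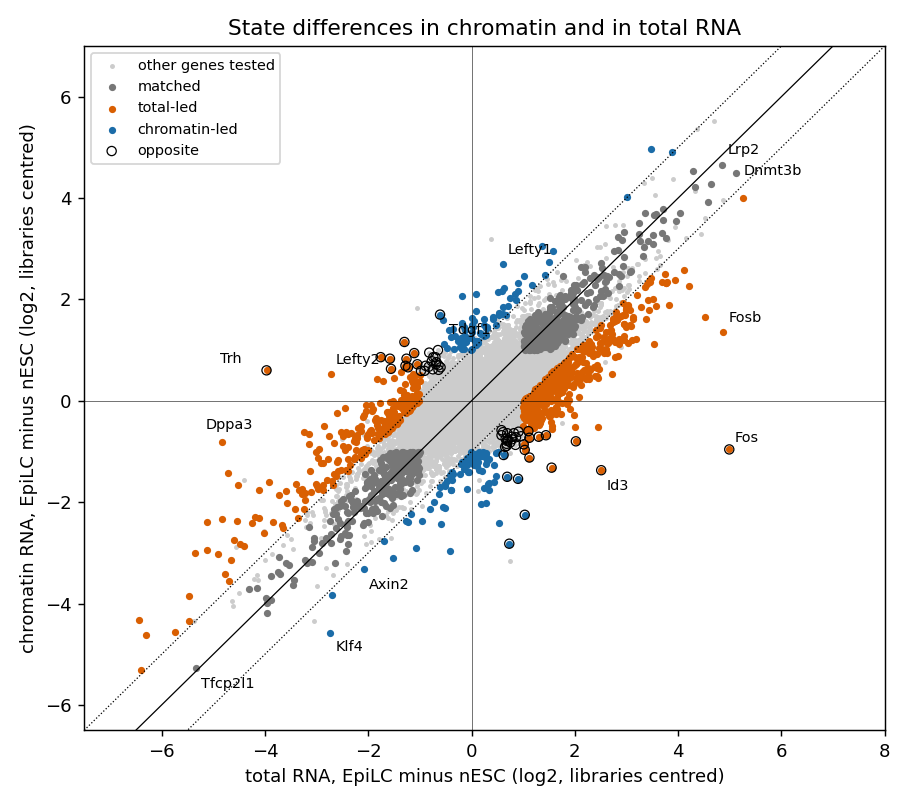
Difference between EpiLC and nESC in total RNA (x axis) and in chromatin RNA (y axis), both in log2 units with libraries centred, for each of the 11704 genes tested; colours mark the classes, rings the genes with opposite differences, the solid line equal differences and the dotted lines an interaction of -1 and 1. Fos (-0.96 in chromatin and 4.99 in total RNA) and Trh (0.60 and -3.97) lie far from the solid line, and Dnmt3b (4.50 and 5.12) and Tfcp2l1 (-5.27 and -5.34) lie close to it.

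The libraries bear on these values. In a 2 kb transcript, 1 FPKM stood for 31.3 to 48.5 fragments in EpiLC chromatin, 63.5 to 84.3 in EpiLC total RNA, 31 to 37.2 in nESC chromatin and 71.2 to 78.7 in nESC total RNA, so low values in chromatin rest on the fewest fragments. EpiLC chromatin library 3 stood apart: the mitochondrial genome took 5.41% of its FPKM, against 1.76% and 1.19% in the other 2 EpiLC and 0.857% to 1.07% in the nESC chromatin libraries. Across genes it was also closest to total RNA (r = 0.893, against 0.838 and 0.854 in the other 2, and 0.804 to 0.806 in nESC). Without it 393 genes were higher and 718 lower, and 953 of the 1147 calls were shared. The spread over genes of chromatin minus total RNA was 1.01 in EpiLC and 1.30 in nESC (SD, log2). The state markers matched the labels: Dnmt3b averaged 778 ± 20.9 FPKM in EpiLC total RNA and 22.2 ± 0.144 in nESC total RNA, and Nanog 14.2 ± 0.688 and 277 ± 2.92 (SD, n = 3 each). Retained RNAs stood higher in chromatin than in total RNA, as with Malat1 at 4545 ± 993 and 1064 ± 62.4 FPKM in EpiLC and 4864 ± 531 and 632 ± 53.3 FPKM in nESC.

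The change of Fos, a transcription factor subunit of AP-1 that growth factor signals induce within minutes, was the largest of all named genes. Its chromatin RNA had 23.4, 22.8 and 24 FPKM in EpiLC, against 41.3, 49 and 50.4 FPKM in nESC. In total RNA it had 38.9, 33.5 and 36.8 FPKM in EpiLC, against 0.318, 0.472 and 1.56 FPKM in nESC. Fos RNA was thus lower in every EpiLC chromatin library and higher in every EpiLC total library, with no overlap in either. The interaction was -5.95 (SE 0.36, adjusted p = 2.79e-06). The other fractions did not show the total RNA difference: nucleoplasm had 2.69 ± 1.03 FPKM in EpiLC and 9.07 ± 0.974 FPKM in nESC, and cytoplasm had 2.34 ± 0.777 and 2.72 ± 0.203 FPKM (SD, n = 3 each). In EpiLC every total library of Fos lay above every chromatin, nucleoplasm and cytoplasm library, and in nESC below every one. Total RNA thus did not lie between the fractions in either state, and the reason was not tested.

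Fosb, a related AP-1 subunit, had 15.3, 18.5 and 26.9 FPKM in EpiLC chromatin, against 6.95, 7.47 and 8.34 FPKM in nESC chromatin. Its total RNA had 20.2, 19.3 and 18.9 FPKM in EpiLC, against 0.108, 0.141 and 0.366 FPKM in nESC. Both kinds of RNA were higher in EpiLC, total RNA by far more (1.35 and 4.87 on the log2 scale), and the interaction was -3.51 (SE 0.27, adjusted p = 1.88e-05). In cytoplasm Fosb averaged 0.772 FPKM in EpiLC and 0.208 FPKM in nESC.

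Of 34 tested immediate early and unstable messages, 5 had a higher and 9 a lower ratio, beside 3.75% and 6.05% of all genes. The median interaction of this list was -0.26, beside -0.02 over all genes. The lower ones included Jun, the partner of Fos, at -1.53 (adjusted p = 2.78e-04; -0.89 and not called with quantile normalization) and Ccn1, a secreted matrix protein, with a difference of -0.27 in chromatin and 1.73 in total RNA (adjusted p = 0.00373). Dusp1, a phosphatase that switches off MAP kinases, had 32.3, 31.9 and 28.7 FPKM in EpiLC total RNA, against 8.52, 6.75 and 9.29 FPKM in nESC total RNA. In chromatin it had 30.4, 34.5 and 42.3 FPKM in EpiLC and 27, 25.6 and 34.4 FPKM in nESC, so the groups overlapped in chromatin and not in total RNA. Its interaction was -1.57 (SE 0.22, adjusted p = 4.81e-04). Zfp36 and Zfp36l2, which bind AU-rich elements and recruit the deadenylase, had interactions of -1.54 and -1.51 (adjusted p = 6.13e-04 and 1.18e-04); that of Zfp36l2 fell to -0.87 with quantile normalization and was then not called. In 6 of the 9 genes the cytoplasm difference was closer to the chromatin than to the total RNA difference. In 3 it was closer to total RNA. It was closer to total RNA in 43.6% of all 708 genes with a lower ratio, and in 34.1% of those led by total RNA. The 5 with a higher ratio were Gadd45b, Id1, Ier3, Klf10 and Mycl, with Gadd45b, a stress-induced growth arrest gene, at 1.90 (adjusted p = 1.07e-04). Ier3, at 1.14, was not called in 9 of the 12 fits that left out 1 library, EpiLC chromatin library 3 among them, nor after each library was corrected for exonic length and GC content (0.95), the length and GC correction. Klf10 was not called after that correction (0.94), and Mycl was not with quantile normalization (0.94) or in 6 of the 12 fits.

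**Figure D2:**
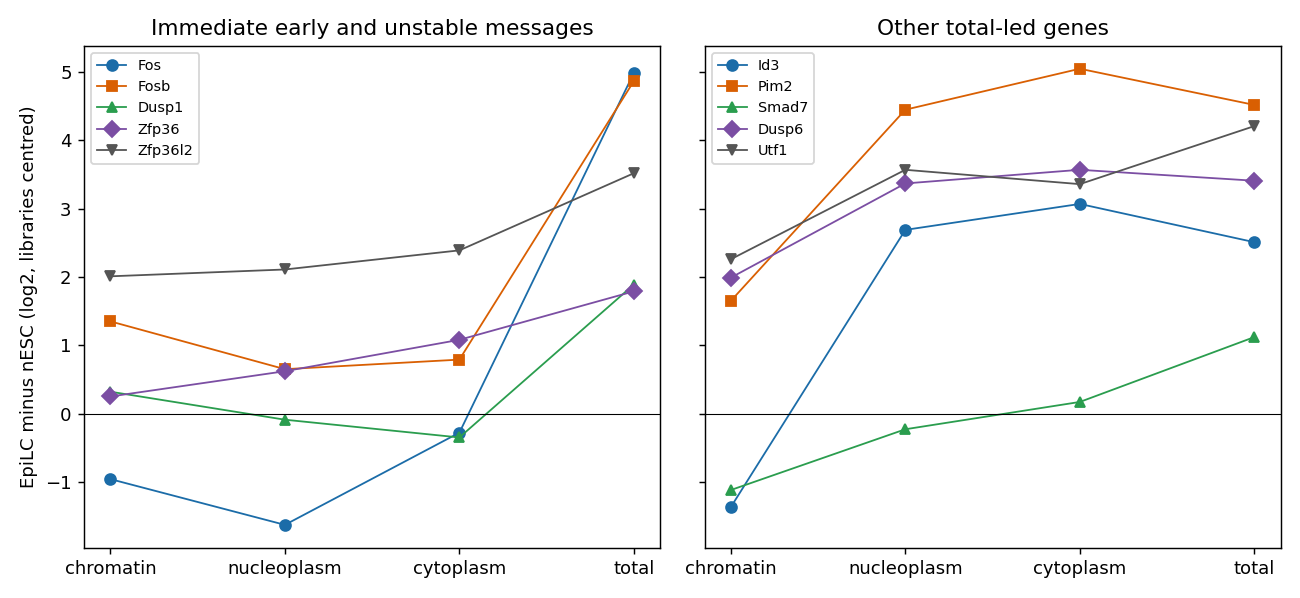
Difference between EpiLC and nESC (y axis, log2) in chromatin, nucleoplasm, cytoplasm and total RNA (x axis) for 10 genes with a lower ratio in EpiLC. In the left panel (Fos, Fosb, Dusp1, Zfp36 and Zfp36l2) the cytoplasm value stays near the chromatin value or between it and total RNA. Fos is at -0.28 in cytoplasm and 4.99 in total RNA. In the right panel Id3 and Pim2 reach 3.07 and 5.05 in cytoplasm. Smad7, also in the right panel, is at -1.12 in chromatin, 0.17 in cytoplasm and 1.12 in total RNA. Id3 is a member of the immediate early and unstable message list too.

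Id3, an inhibitor of bHLH transcription factors and a known target of BMP signalling, ran in opposite directions in the 2 kinds of RNA. Chromatin RNA had 8.56, 10.9 and 13.2 FPKM in EpiLC, against 31.2, 39.3 and 20.3 FPKM in nESC. Total RNA had 34.3, 40.3 and 33.8 FPKM in EpiLC, against 7.89, 4.79 and 5.8 FPKM in nESC. Neither pair of groups overlapped, and the interaction was -3.88 (SE 0.34, adjusted p = 3.00e-05). Unlike that of Fos, its cytoplasm RNA went with total RNA, and averaged 35.5 FPKM in EpiLC and 3.54 FPKM in nESC. Id3 was also among the 9 genes with a lower ratio on the list of immediate early and unstable messages. Its relative Id1 had a change of the other sign, with a chromatin difference of 1.51, a total RNA difference of -0.18 and an interaction of 1.70 (adjusted p = 2.44e-04).

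Pim2, a kinase that supports survival, was higher in EpiLC in both kinds of RNA but more so in total RNA. It had 33.4, 33 and 25.8 FPKM in EpiLC chromatin, against 9.77, 9.95 and 8.96 FPKM in nESC chromatin, and 66.2, 67.4 and 71 FPKM in EpiLC total RNA, against 2.66, 2.52 and 2.43 FPKM in nESC total RNA. The ratio was below 1 in EpiLC and above 1 in nESC (-1.20 and 1.67, log2), an interaction of -2.87 (SE 0.14, adjusted p = 1.35e-06). Cytoplasm averaged 118 FPKM in EpiLC and 2.86 FPKM in nESC. Utf1, a chromatin-bound pluripotency factor, followed the same form with an interaction of -1.96 (adjusted p = 3.00e-05; -1.26 with quantile normalization).

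Among 16 tested genes of the MEK and ERK response, 1 had a higher and 4 a lower ratio (median -0.46). The shares over all genes were 3.75% and 6.05%. Fos, Dusp1, Dusp4 and Dusp6 were lower, all of them known feedback or early targets of ERK. Ier3, with the uncertain call described above, was higher. Dusp6, an ERK phosphatase, had 83.4, 71.4 and 75.7 FPKM in EpiLC total RNA, against 7.43, 6.31 and 6.99 FPKM in nESC total RNA. In chromatin it had 33.2, 34.2 and 41.7 FPKM in EpiLC and 8.97, 9.37 and 8.46 FPKM in nESC. The differences of 1.99 in chromatin and 3.41 in total RNA gave an interaction of -1.42 (adjusted p = 1.36e-04), which with quantile normalization was -0.87 and no longer called; that of Dusp4, -1.25, was -0.63 there.

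Genes of nodal and activin signalling went both ways. Of 15 tested, the feedback inhibitors Lefty1 and Lefty2 and the co-receptor Tdgf1 had a higher ratio. The receptor Acvr2b, the inhibitory Smad7 and the target Eomes had a lower one (median of the list -0.23). The shares over all genes were 3.75% higher and 6.05% lower. Acvr2b, at -1.04, was not called after the length and GC correction (-0.99), with quantile normalization (-0.67) or in 3 of the 12 fits without 1 library. Lefty1 had 150, 195 and 269 FPKM in EpiLC chromatin, against 34.1, 29.8 and 29.4 FPKM in nESC chromatin. Its total RNA had 103, 133 and 119 FPKM in EpiLC and 92.1, 68.6 and 78.1 FPKM in nESC. The groups were apart in both, but the difference of 2.69 in chromatin stood beside only 0.60 in total RNA, an interaction of 2.09 (SE 0.27, adjusted p = 2.85e-04).

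Lefty2 had similar chromatin levels in both states, with 65.3, 79.2 and 129 FPKM in EpiLC and 66.5, 63.6 and 55.5 FPKM in nESC. Its total RNA had 27.1, 29.2 and 29.1 FPKM in EpiLC, against 217, 178 and 190 FPKM in nESC. Only total RNA separated the states, and the interaction was 3.25 (SE 0.28, adjusted p = 3.00e-05). In cytoplasm the difference was -0.57, against -2.73 in total RNA. Lefty1 and Lefty2 are close paralogs at chromosome 1, 180935022 to 180938400 and 180893108 to 180899103 (GRCm38), and shared reads could blur both. Tdgf1 had a chromatin difference of 1.12, a total RNA difference of -0.53 and an interaction of 1.65 (adjusted p = 4.23e-04).

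Smad7, which blocks receptor signalling, had 36.5, 42.1 and 38.1 FPKM in EpiLC chromatin, against 121, 98.8 and 54.3 FPKM in nESC chromatin. In total RNA Smad7 had 24.5, 25 and 24.5 FPKM in EpiLC and 12.7, 10.1 and 11 FPKM in nESC. The 2 kinds of RNA differed in opposite directions without overlap, and the interaction was -2.24 (SE 0.31, adjusted p = 4.27e-04).

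Of 10 tested Wnt response genes, 1 had a higher and 4 a lower ratio (median -0.73), beside 3.75% and 6.05% of all genes. Axin2, a feedback inhibitor of Wnt signalling, had 4.17, 4.79 and 6.84 FPKM in EpiLC chromatin, against 67, 54.3 and 51.7 FPKM in nESC chromatin. Its total RNA had 3.45, 4.81 and 5.04 FPKM in EpiLC, against 20.9, 18.8 and 22.2 FPKM in nESC. Both were lower in EpiLC, and chromatin RNA was lower by more, with an interaction of -1.24 (SE 0.26, adjusted p = 0.00414). Notum, a secreted enzyme that inactivates Wnt proteins, went the other way: its chromatin RNA averaged 3.36 ± 0.978 FPKM in EpiLC and 30.2 ± 2.09 FPKM in nESC, and its total RNA 0.74 ± 0.0645 and 50.8 ± 2.35 FPKM (SD, n = 3 each). The interaction of Notum was 2.35 (adjusted p = 5.36e-05). The other 3 lower genes were Nkd2 (-1.92), Tcf7l1 (-1.39) and Znrf3 (-1.12), and Tcf7l1 was at -0.85 and not called with quantile normalization. Znrf3 was not called there either (-0.87), nor after the length and GC correction (-0.97).

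**Figure D3:**
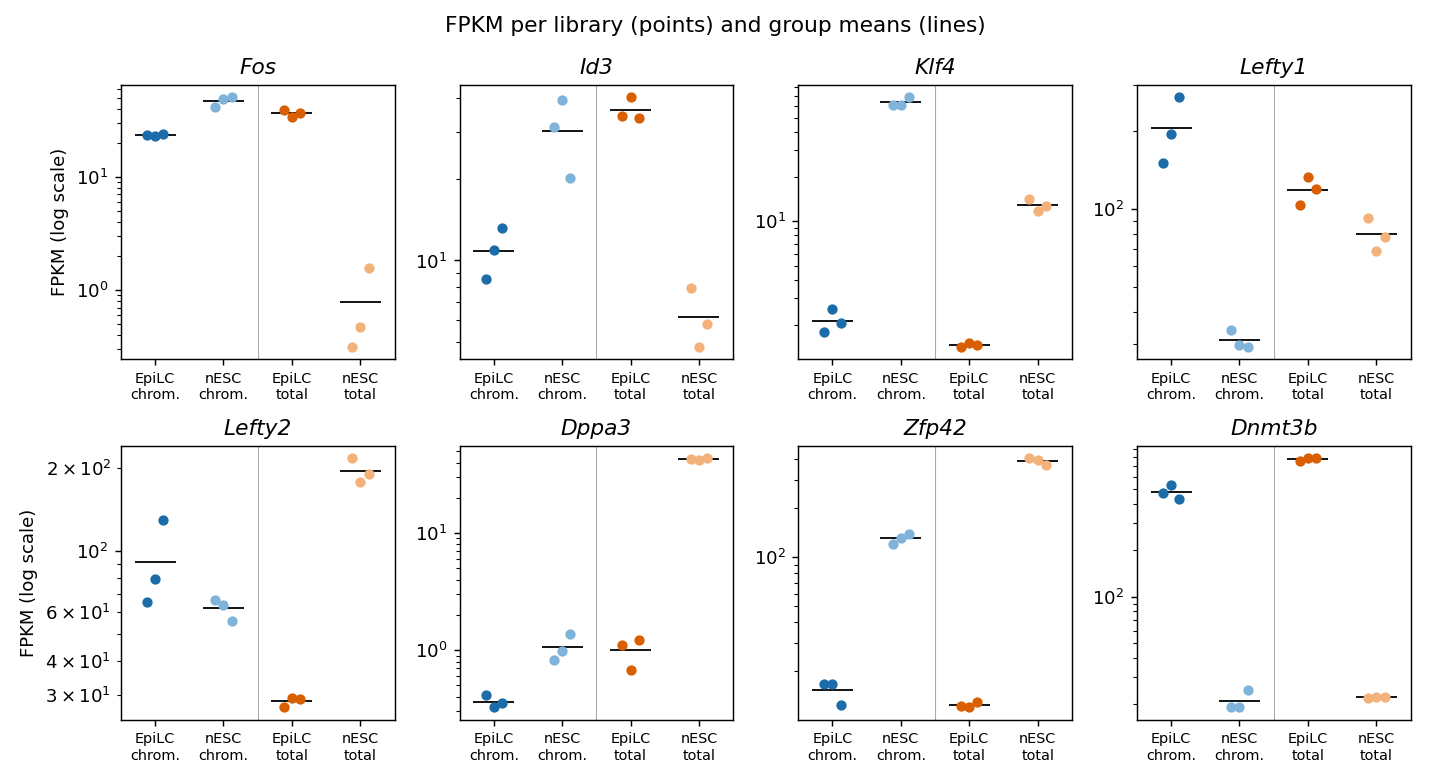
FPKM in each library (points, log y axis) of EpiLC chromatin, nESC chromatin, EpiLC total and nESC total RNA (x axis) for 8 genes, with a line at each group's mean. In Fos and Id3 the order of the states is opposite in chromatin and total RNA, and in Lefty2 only total RNA is apart; in Klf4, Zfp42 and Dnmt3b both differ the same way.

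Naive pluripotency genes had more calls of a higher than of a lower ratio. Of 37 tested, 13 had a higher and 4 a lower one, beside 3.75% and 6.05% of all genes. The median interaction of the list was 0.64. The median difference was -1.67 in chromatin and -2.64 in total RNA, so total RNA was lower in EpiLC by more. Quantile normalization gave 7 higher and 4 lower with a median of 0.18. The list was chosen for the naive state, so a lower level in EpiLC is no finding here, and the comparison is between the 2 kinds of RNA. Not every called member was lower in EpiLC. Dnmt3l differed by 1.76 in chromatin and 2.80 in total RNA, and Id3 by 2.51 in total RNA. Id1 and Tdgf1 differed by 1.51 and 1.12 in chromatin.

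Dppa3, a maternal factor that shields methylation marks, had 1.11, 0.672 and 1.23 FPKM in EpiLC total RNA, against 42.8, 42.2 and 43.6 FPKM in nESC total RNA. Its chromatin RNA was low in both states, with 0.413, 0.325 and 0.354 FPKM in EpiLC and 0.832, 0.987 and 1.37 FPKM in nESC, where few fragments lie behind each value. The groups were apart in both, and the interaction was 4.03 (SE 0.23, adjusted p = 2.18e-06). Fbxo15, a substrate receptor of a ubiquitin ligase, averaged 11.5 ± 1.06 and 64.1 ± 8.49 FPKM in EpiLC and nESC chromatin, and 5.74 ± 0.176 and 222 ± 13.5 FPKM in EpiLC and nESC total RNA (SD, n = 3 each). Its interaction was 2.74 (adjusted p = 2.14e-06).

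Zfp42, also called Rex1, had 16.8, 16.8 and 12.4 FPKM in EpiLC chromatin, against 121, 132 and 140 FPKM in nESC chromatin. In total RNA it had 12.2, 12 and 12.9 FPKM in EpiLC, against 407, 397 and 369 FPKM in nESC. The difference of -3.03 in chromatin and -4.90 in total RNA gave an interaction of 1.87 (SE 0.16, adjusted p = 2.27e-05), and 1.01 with quantile normalization. Tcl1, an Akt co-activator, and Esrrb, an orphan nuclear receptor, followed with 2.11 and 1.43 (adjusted p = 3.00e-05 and 4.40e-04); quantile normalization gave 1.33 and 0.78, and Esrrb was not called there. Spp1, a secreted phosphoprotein, had an interaction of 2.87 (SE 0.44, adjusted p = 6.90e-04), with 38.2, 30.1 and 89.4 FPKM in EpiLC chromatin, where library 3 was the highest.

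Klf4, a naive Krüppel-like factor, had a lower ratio. It had 1.78, 2.53 and 2.04 FPKM in EpiLC chromatin, against 60.9, 60.8 and 68.5 FPKM in nESC chromatin. Total RNA of Klf4 had 1.42, 1.49 and 1.45 FPKM in EpiLC, against 14, 11.7 and 12.7 FPKM in nESC. Chromatin RNA was lower by 4.59 and total RNA by 2.74 on the log2 scale, an interaction of -1.85 (SE 0.17, adjusted p = 3.18e-05). Id3 was also among the 4 genes of the naive list with a lower ratio. The calls on the others, the DNA demethylation enzyme Tet2 (-1.13) and the methyltransferase cofactor Dnmt3l (-1.03), were less stable. Tet2 lost its call in 11 of the 12 fits that left out 1 library and after the length and GC correction (-0.74). Dnmt3l lost it without EpiLC chromatin library 3 (-0.91), without nESC chromatin library 3 (-0.82) and with quantile normalization (-0.57).

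Other naive factors were matched. Tfcp2l1, a transcription factor downstream of LIF, had 2.02, 3.28 and 2.49 FPKM in EpiLC chromatin, against 142, 101 and 120 FPKM in nESC chromatin, and 1.3, 0.875 and 1.67 FPKM in EpiLC total RNA, against 71.6, 70.4 and 73.1 FPKM in nESC total RNA. Its interaction was 0.07 with a 95% interval of -0.50 to 0.63, and that of Klf2, another naive Krüppel-like factor, was -0.11 (-0.53 to 0.31). With quantile normalization that of Tfcp2l1 was -0.84. Nanog lay between, with 0.70 (0.40 to 1.01), under the 2-fold threshold. Sox2, which maintains pluripotency with Oct4, was lower in EpiLC by 1.88 in chromatin and 2.38 in total RNA, and Pou5f1, which encodes Oct4, differed by 0.23 and -0.17.

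Formative epiblast genes had a median difference of 2.13 in chromatin and 2.24 in total RNA. Of 31 tested, 3 had a higher and 4 a lower ratio (median interaction -0.11), beside 3.75% and 6.05% of all genes. Dnmt3b, a de novo DNA methyltransferase, had 472, 525 and 430 FPKM in EpiLC chromatin, against 19.1, 19.2 and 24.7 FPKM in nESC chromatin, and 754, 790 and 790 FPKM in EpiLC total RNA, against 22.1, 22.2 and 22.3 FPKM in nESC total RNA. The states were far apart in both and the interaction of -0.62 (-0.96 to -0.29) was under 2-fold, at 0.62 with quantile normalization. Otx2, a homeobox factor of the epiblast, was matched too, with 4.22 in chromatin and 4.33 in total RNA. The lower genes were Pim2, Utf1, Foxd3 and Zic2, the last a zinc finger factor with 1.87 in chromatin and 3.00 in total RNA, which was not called with quantile normalization (-0.55). Fgf5, the standard marker of this state, was not tested since nESC lay under the filter; it averaged 25.7 ± 2.03 and 54.2 ± 1.45 FPKM in EpiLC chromatin and total RNA, against 0.0309 ± 0.0338 and 0.0553 ± 0.0178 FPKM in nESC.

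Trh, the thyrotropin-releasing hormone gene, which was placed in the formative list, had the largest higher ratio of the named genes. Its chromatin RNA had 51, 54.7 and 123 FPKM in EpiLC and 40.7, 39.9 and 63.6 FPKM in nESC, and these overlapped. Its total RNA had 21.1, 24.6 and 24.3 FPKM in EpiLC, against 420, 382 and 341 FPKM in nESC. The interaction was 4.57 (SE 0.41, adjusted p = 3.00e-05). Cytoplasm did not show the total RNA difference, with 151 ± 38.1 FPKM in EpiLC and 155 ± 10.4 FPKM in nESC (SD, n = 3 each). Total RNA of Trh lay below every chromatin, nucleoplasm and cytoplasm library in EpiLC and above every one in nESC. The reason was not tested.

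**Figure D4:**
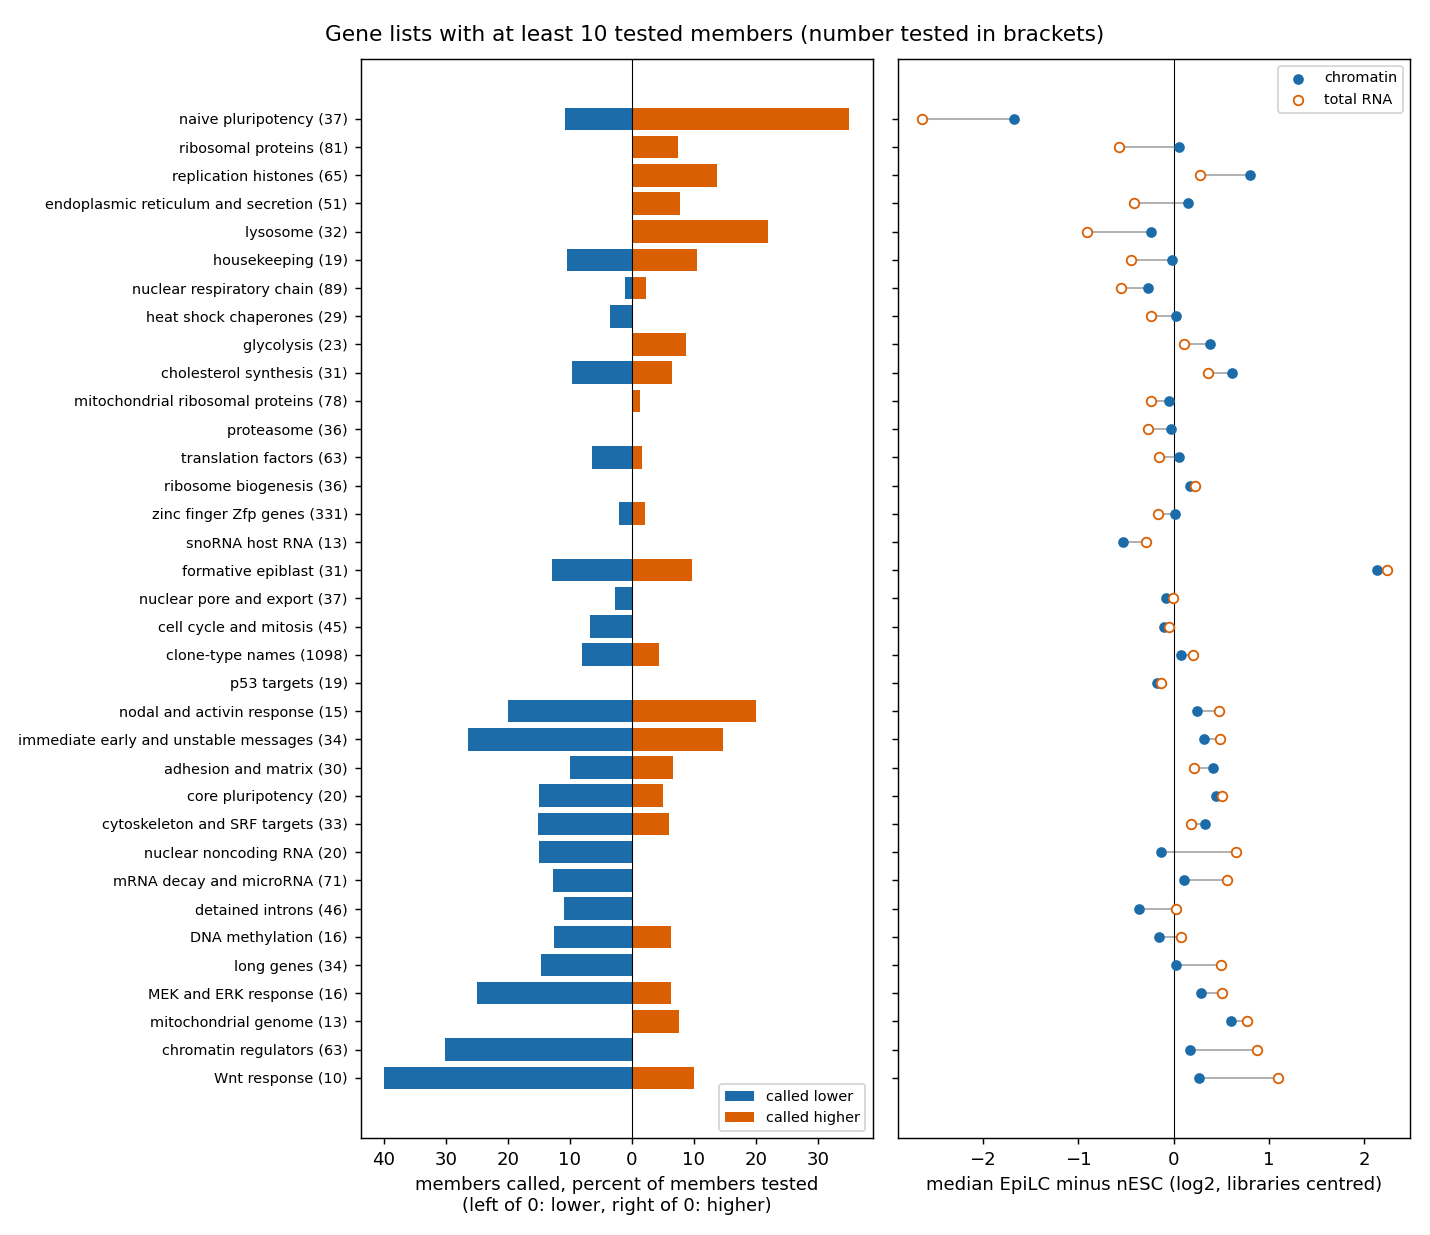
Gene lists with at least 10 tested members (number tested in brackets), ordered by median interaction: the left panel gives the percent of tested members called lower (left of 0) and higher (right of 0), and the right panel the median difference between EpiLC and nESC in chromatin (filled) and in total RNA (open), in log2 units. Naive pluripotency genes, at the top, have medians of -1.67 in chromatin and -2.64 in total RNA, and chromatin regulators, near the bottom, 0.17 and 0.87.

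Lysosomal genes had a higher ratio in 7 of 32 tested and a lower one in 0 (4 higher without EpiLC chromatin library 3, and 1 with quantile normalization; median 0.47). The shares called over all genes were 3.75% higher and 6.05% lower. At an unadjusted p under 0.05 in limma, 14 lysosomal genes were higher and 2 lower, where 19.7% and 22.9% of all genes were. Ctsb, a lysosomal protease, had 10.5, 11.6 and 11.3 FPKM in EpiLC total RNA, against 46.3, 47.3 and 50.1 FPKM in nESC total RNA. In chromatin it had 19.1, 20.8 and 30 FPKM in EpiLC and 31.7, 27.9 and 17.2 FPKM in nESC, which overlapped. Its interaction was 1.95 (SE 0.29, adjusted p = 6.60e-04). Ldhb, the heart-type lactate dehydrogenase subunit, had the same form: chromatin 70.6 ± 11.9 FPKM in EpiLC and 76.1 ± 4.53 FPKM in nESC, total RNA 188 ± 5.84 and 735 ± 14.7 FPKM, and an interaction of 1.85 (adjusted p = 3.18e-05).

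Replication histone genes, whose messages have a stem-loop in place of a poly(A) tail, had a higher ratio in 9 of 65 and a lower one in 0 (41 and 0 at an unadjusted p under 0.05 in limma, beside 19.7% and 22.9% of all genes). Of all genes tested, 3.75% were called higher and 6.05% lower. The count of higher calls among histone genes was 6 without EpiLC chromatin library 3 and 18 with quantile normalization. The median difference of the histone genes was 0.80 in chromatin and 0.28 in total RNA. Hist3h2a, an H2A gene, had 58.6, 53.8 and 71.7 FPKM in EpiLC chromatin, against 16.3, 12.6 and 12.5 FPKM in nESC chromatin, and 170, 154 and 155 FPKM in EpiLC total RNA, against 114, 117 and 111 FPKM in nESC total RNA. Both pairs were apart, chromatin by more, and the interaction was 1.63 (adjusted p = 1.09e-04). In all 9 the cytoplasm difference was closer to total RNA than to chromatin RNA. So it was in 69.9% of all 439 genes with a higher ratio, and in 91.9% of those led by chromatin RNA. Histone genes have near-identical copies, so the value of a single gene is uncertain.

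Hexim1, which holds the elongation kinase P-TEFb inactive, was led by chromatin as well. It had 15.2, 17.2 and 17 FPKM in EpiLC chromatin, against 7.11, 6.94 and 6.32 FPKM in nESC chromatin, and 17.3, 17.6 and 15.7 FPKM in EpiLC total RNA, against 23.1, 21.8 and 23.1 FPKM in nESC total RNA. Chromatin RNA was higher and total RNA lower in every EpiLC library, with an interaction of 1.64 (SE 0.13, adjusted p = 2.27e-05).

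Rbm14, an RNA-binding paraspeckle protein, was led by chromatin in the other direction. Its chromatin RNA had 40.3, 50.4 and 31 FPKM in EpiLC, against 145, 132 and 106 FPKM in nESC, and its total RNA 22.3, 24.4 and 23.9 FPKM in EpiLC, against 18, 20.4 and 17.9 FPKM in nESC. The interaction was -1.98 (SE 0.22, adjusted p = 1.13e-04). Ttn, the giant muscle protein gene, averaged 2.21 ± 0.87 FPKM in EpiLC chromatin and 20.5 ± 3.2 FPKM in nESC chromatin, with 0.844 ± 0.0882 and 1.33 ± 0.116 FPKM in total RNA (SD, n = 3 each). Its interaction of -2.54 was -0.92 and no longer called once its libraries had been corrected for GC content and exonic length; that of Macf1, a long cytoskeletal linker gene, was -1.33 and then -0.55. Srebf1, a regulator of lipid synthesis, was at -1.27 and -0.99.

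Among lists with at least 10 tested members, chromatin regulators had the largest share of lower ratios after the Wnt response (4 of 10). Of 63 tested, 19 were lower and 0 higher, beside 6.05% and 3.75% of all genes, with a median of -0.65. At an unadjusted p under 0.05 in limma 35 were lower and 3 higher, beside 22.9% and 19.7% of all genes. After the length and GC correction 8 were lower and the median was -0.29, with quantile normalization 10 were lower, and without EpiLC chromatin library 3 there were 14. The 19 included the remodellers Chd4, Chd7, Chd8 and Smarca4, the acetyltransferases Crebbp and Ep300, and the methyltransferases Kmt2a, Kmt2c, Kmt2d, Setd1a and Dot1l. Chd7, Ep300, Kmt2c, Kmt2d, Setd1a and Smarca4 were called neither after the length and GC correction nor with quantile normalization, Chd8 was not after the correction, and Kmt2a was not with quantile normalization. Crebbp had 14.7, 13.6 and 14.8 FPKM in EpiLC total RNA, against 2.2, 2.4 and 2.39 FPKM in nESC total RNA. In chromatin it had 24.7, 23.9 and 18.8 FPKM in EpiLC and 18, 13.6 and 17.2 FPKM in nESC. The difference was 0.48 in chromatin and 2.42 in total RNA, an interaction of -1.93 (SE 0.17, adjusted p = 3.03e-05). Dot1l had 0.17 in chromatin and 1.75 in total RNA, an interaction of -1.58 (adjusted p = 2.27e-05).

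Several genes of transcription and RNA turnover had a lower ratio too. Polr2a, the largest subunit of RNA polymerase II, averaged 16 ± 1.49 FPKM in EpiLC chromatin and 22.1 ± 3.82 FPKM in nESC chromatin, and 9.64 ± 0.49 and 3.1 ± 0.729 FPKM in total RNA, with an interaction of -1.96 (adjusted p = 1.17e-04). Of 71 genes of mRNA decay and microRNA function 9 were lower and 0 higher (median -0.40; 36 and 5 at an unadjusted p under 0.05). They included Cnot3, a subunit of the CCR4-NOT deadenylase, at -1.76, Ago2, the microRNA effector, at -1.48, the decapping scaffold Edc4 at -1.44 and the nonsense-mediated decay helicase Upf1 at -1.38 (adjusted p = 5.11e-04, 6.95e-04, 2.76e-04 and 3.59e-05). Of 46 genes known for detained introns 5 were lower and 0 higher (24 and 1 at an unadjusted p under 0.05), among them the splicing co-activators Srrm1 and Srrm2, both at -1.72 (adjusted p = 1.82e-05 and 1.77e-04). Of 34 long genes 5 were lower (2 after the length and GC correction, and 2 without EpiLC chromatin library 3) and 0 higher (18 and 1 at an unadjusted p under 0.05). Over all genes 6.05% were called lower and 3.75% higher. At an unadjusted p under 0.05 in limma the shares were 22.9% and 19.7%.

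Length and base composition moved with the calls. Genes with a lower ratio had a median exonic length of 5765 bases, 53% GC and 13 exons in the annotation, those with a higher ratio 2617 bases, 50.2% GC and 6 exons, and all tested genes 4243 bases, 49.7% GC and 9 exons. After the correction 365 genes were higher and 608 lower, and 762 of the 1147 calls were shared. The part of length and GC in these results beyond that correction was not tested.

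**Figure D5:**
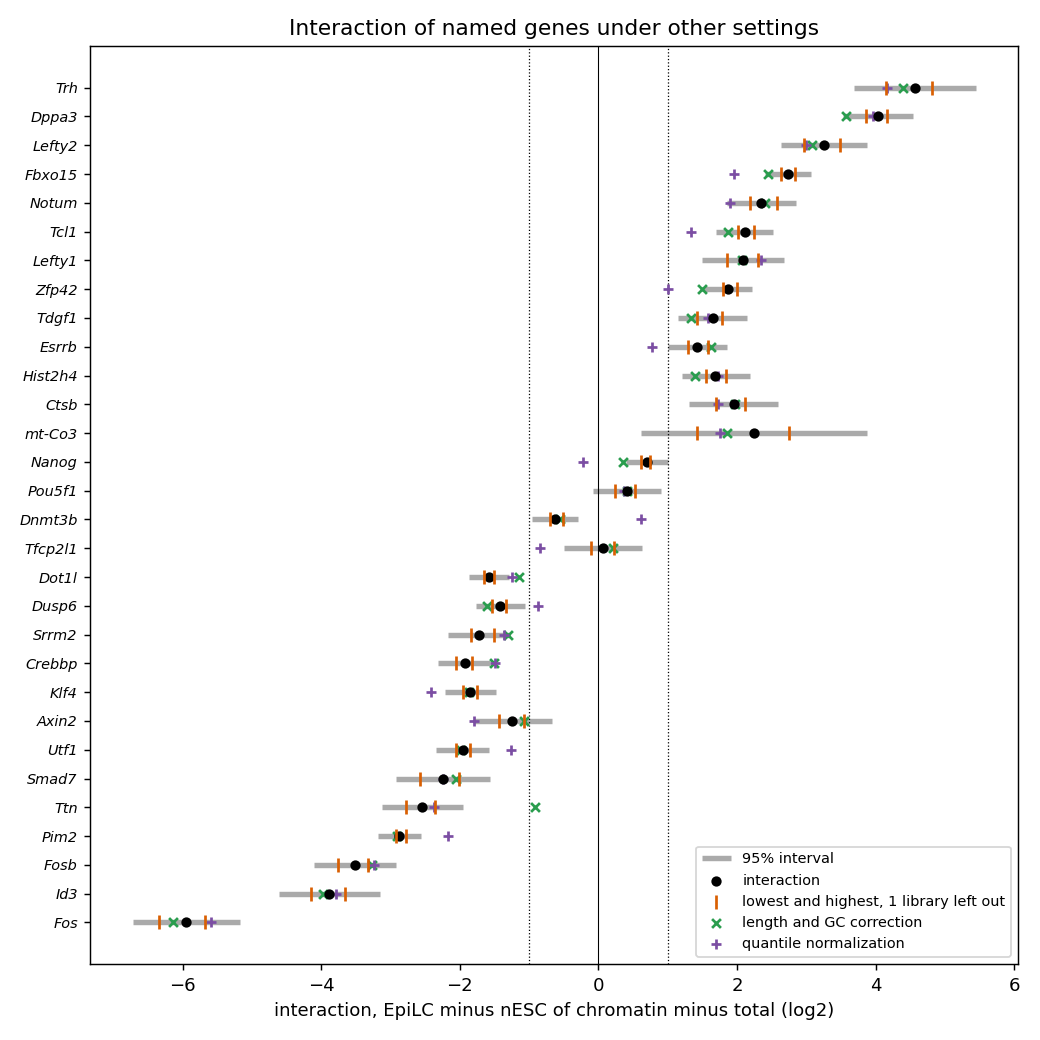
Interaction (x axis, log2) of 30 genes with its 95% interval, the range with each library left out in turn, and the values after length and GC correction and with quantile normalization; dotted lines mark -1 and 1. Fos at -5.95 and Trh at 4.57 stay beyond these lines, while Ttn at -2.54 moves to -0.92 with the correction and Esrrb at 1.43 to 0.78 with quantile normalization.

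Ribosomal protein and respiratory chain genes had medians above 0 that moved with the processing. Calls over all genes were 3.75% higher and 6.05% lower. Of 81 ribosomal protein genes 6 were higher and 0 lower (37 and 0 at an unadjusted p under 0.05 in limma, beside 19.7% and 22.9% of all genes), and 78 had a value above 0. The median of 0.64 was 0.34 without EpiLC chromatin library 3, where 2 were called, 0.41 after the length and GC correction and 0.22 with quantile normalization. Rpl35 had 315, 302 and 446 FPKM in EpiLC chromatin, against 236, 175 and 172 FPKM in nESC chromatin, and 1425, 1410 and 1376 FPKM in EpiLC total RNA, against 2141, 2033 and 2012 FPKM in nESC total RNA, an interaction of 1.42 (adjusted p = 0.00109). Its library 3 was the highest in EpiLC chromatin, and ribosomal protein genes have many processed copies. The median of 89 nuclear respiratory chain genes was 0.34, and 0.01 without that library, 0.12 after the correction and 0.13 with quantile normalization. For the 13 messages of the mitochondrial genome it was -0.47 with 1 higher call, and -0.94 with 1 higher and 6 lower calls without it. The single higher call, mt-Co3, had 2507, 1875 and 11502 FPKM in EpiLC chromatin and its call was lost on leaving out any single one of the 6 total RNA libraries.

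Of the common housekeeping messages, Gapdh, a glycolytic enzyme, had an interaction of -0.08 (-0.44 to 0.28) and Actb, the cytoskeletal actin, -0.47 (-0.98 to 0.04). Among 20 nuclear noncoding RNAs 0 were higher and 3 were lower (2 and 11 at an unadjusted p under 0.05 in limma). Over all genes 3.75% were called higher and 6.05% lower, and 19.7% and 22.9% passed that unadjusted p. Neat1, the scaffold of paraspeckles, was matched, with 14.7, 16.4 and 16.9 FPKM in EpiLC chromatin, against 128, 95.3 and 92.5 FPKM in nESC chromatin, and 4.48 ± 0.352 FPKM in EpiLC total RNA, against 25.8 ± 2.03 FPKM in nESC total RNA. Meg3, an imprinted noncoding RNA, had an interaction of -0.67 and Malat1, the nuclear speckle RNA, -0.87, both under 2-fold. The 3 lower ones were Tsix (-1.60), Kcnq1ot1 (-1.62, and -0.20 after the length and GC correction) and Xist (-1.34). Xist was not called after that correction (-0.95) or with quantile normalization (-1.05). Tsix and Xist overlap on opposite strands, as do Kcnq1ot1 and Kcnq1, and the use of strand in counting is not given in the sources used here, so their reads may be mixed.

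Markers of other cells were mostly under the filter. Of 16 primitive endoderm markers 3 were tested, and their summed level ran from 211 to 439 FPKM in EpiLC chromatin and 293 to 298 in EpiLC total RNA, against 266 to 486 in nESC chromatin and 1201 to 1317 in nESC total RNA. The sums of 15 fibroblast and feeder markers, of which 1 was tested, were 14.7 to 30.2 and 19 to 27 FPKM in EpiLC chromatin and total RNA, against 5.88 to 7.2 and 1.36 to 15.8 FPKM in nESC. For 12 trophectoderm, 18 mesoderm and neural and 15 markers of 2-cell-like cells, the tested members numbered 4, 2 and 2. Their part in the results was not tested, and in bulk RNA fewer cells of a type and less RNA per cell cannot be told apart.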

How the data were processed

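RNA sequencing values of chromatin, nucleoplasm, cytoplasm and total RNA were deposited by the authors as FPKM per gene, 1 table per cell state, with TopHat2 and Cuffnorm and the build mm10 (GRCm38) named in the submitters' processing notes. Libraries were depleted of ribosomal RNA and made with a stranded kit, per the labels' protocols. Not given in the sources used here are tool versions, the annotation, how Cuffnorm scaled libraries and whether counting used the strand. Because each table was normalized on its own, state differences within a fraction carry no test and the test is on differences of ratios taken within a table. FPKM sums ran from 432706 to 504959 in chromatin and from 811018 to 982175 in total RNA. Each table holds 29759 genes, and 29586 found a symbol in GENCODE M21 (GRCm38).

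The 12 chromatin and total libraries, grouped by their labels, went into 1 fit in R 4.3.3 with limma 3.58.1 (two-sided; lmFit, contrasts.fit and trended eBayes). Values were log2(FPKM + 0.5), centred on each library's median, over genes averaging 1 FPKM or more in each table. That average was over all libraries of the table, nucleoplasm and cytoplasm included. P-values were adjusted over all 11704 genes by Benjamini-Hochberg. A fold on this scale understates the change of low genes. Steps between low values gave the depth; 84.8% to 92.5% of them lay within 10% of a whole multiple over 1276 genes, and low chromatin values rest on few fragments. Replicate numbers were not used to pair chromatin and total libraries in the main fit. The correlation of same-numbered deviations ran from -0.09 to 0.08 in EpiLC and from 0.04 to 0.11 in nESC. Values this low cannot show whether same-numbered libraries share a culture, since noise of fractionation could hide it.

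The members and the 40 gene lists were chosen with earlier results of these data known. Named genes were the 15 called genes with the largest interaction in each direction, 8 per class and up to 4 per list, with pairs of the states apart and a highest group mean of at least 5 FPKM, and a fixed set of markers, 197 in all. Printed genes were picked among these and the called list members with values in view; genes with clone-type names and small RNAs were left out. As alternatives the pseudocount was 0.1 or 1, the filter was dropped or set at 5 FPKM, and further fits used other scalings, all 24 libraries, a length and GC correction (spline of 5 degrees of freedom), the replicate block and each library left out; quantile normalization and both chromatin libraries numbered 3 left out were chosen after seeing the data.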

Additional observations from a re-analysis of the deposited data

Results flagged for a closer look

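The 439 higher and 708 lower calls are themselves tests of a difference between the states. In 90 called genes the chromatin-to-total ratio was above 1 in all 9 pairs of EpiLC libraries and below 1 in all 9 pairs of nESC libraries, and in 92 it was the reverse. These are 182 of the 1147 called genes, out of 11704 tested. Genes without a call were not counted, so no share over all genes is given. The 15 of these 182 that were also among the 15 named for the largest interaction in either direction are given with their interaction on the log2 scale.

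With a ratio below 1 in EpiLC and above 1 in nESC stood Fos (-5.95), Id3 (-3.88), Pim2 (-2.87), Tspan9 (-2.44), Sptb (-2.42), Cyp2b23 (-2.30) and Gng3 (-2.20). Tspan9, a tetraspanin, had 3.22, 2.3 and 6.08 FPKM in EpiLC chromatin, against 8.82, 11 and 16.3 FPKM in nESC chromatin, and 8.39, 10.9 and 13.4 FPKM in EpiLC total RNA, against 5.97, 4.95 and 6.01 FPKM in nESC total RNA. Sptb, the erythroid beta spectrin, averaged 6.06 ± 0.739 and 2.64 ± 0.65 FPKM in EpiLC and nESC chromatin, and 7.17 ± 0.109 and 0.175 ± 0.027 FPKM in EpiLC and nESC total RNA. Gng3, a G protein gamma subunit, was higher in EpiLC by 0.52 in chromatin and 2.72 in total RNA.

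With a ratio above 1 in EpiLC and below 1 in nESC stood Trh (4.57), Lefty2 (3.25), Spp1 (2.87), Fbxo15 (2.74), Pcolce (2.63), Mcam (2.46), Klk1 (2.37) and Notum (2.35). Mcam, an adhesion molecule, had 16.5, 17.6 and 35.8 FPKM in EpiLC chromatin, against 8.94, 7.36 and 13.8 FPKM in nESC chromatin, and 10.1, 8.96 and 8.83 FPKM in EpiLC total RNA, against 23.9, 23.4 and 24.4 FPKM in nESC total RNA. Pcolce, an enhancer of procollagen processing, averaged 17.5 ± 3.71 and 27.2 ± 2.5 FPKM in EpiLC and nESC chromatin, and 9.71 ± 0.613 and 98 ± 2.22 FPKM in EpiLC and nESC total RNA. The side of 1 on which a ratio falls depends on the centring of each library, and the interaction does not change when all libraries of a fraction shift together.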

How the results depend on the processing

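Of 27 alternatives, none reversed the sign of a called gene that the naming rule chose. These genes had an absolute interaction of at least 1, and the alternatives reused the same libraries. A reversal was therefore unlikely from the start, and lost calls, given below, say more. With a mean of at least 5 FPKM 633 genes were called, 265 higher and 368 lower, with 82 chromatin-led, 380 total-led, 38 opposite and 340 matched genes. With no filter, where 26159 genes were tested and the median interaction was 0.147, 994 were higher, and the chromatin-led and matched classes held 372 and 1280. One FPKM sum gave 280 higher and 1070 lower, and without the mitochondrial genome and histones 259 and 1078. Quantile normalization gave 449 lower, 266 chromatin-led and 376 total-led genes. Leaving out both chromatin libraries numbered 3 gave 244 chromatin-led genes, and a pseudocount of 0.1 gave 94 opposite genes. With each library left out in turn, the called genes numbered 1040 to 1327, the higher ones 378 to 535 and the lower ones 661 to 803. The classes held 141 to 223 chromatin-led, 645 to 763 total-led, 53 to 93 opposite and 575 to 720 matched genes, and the 93 arose without EpiLC chromatin replicate 1.

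Of the 124 named genes with a call, 20 lost it with the length and GC correction, 22 with quantile normalization, 15 without the chromatin libraries numbered 3 and 11 without EpiLC chromatin replicate 3; the cause was not tested. The replicate block gave 1162 calls, 446 higher and 716 lower, of which 1133 were shared, and it is not known whether its numbers pair the samples. Depth limits genes near 1 FPKM in chromatin most, and fragments are not known to be independent molecules.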

Other observations

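Calls in several other gene groups follow. The background was 3.75% higher and 6.05% lower, and 19.7% and 22.9% at an unadjusted p under 0.05 in limma. Endoplasmic reticulum and secretion genes had a higher ratio in 4 of 51 and a lower one in 0 (18 and 2 at an unadjusted p under 0.05 in limma; median 0.54): Calu, a calcium-binding protein of the lumen, at 1.59, the lectin chaperone Canx at 1.18, Herpud1, a stress-induced degradation factor, at 1.10 and the COPII coat protein Sec23a at 1.01. After the length and GC correction only Calu was still called, and the median was 0.44. Without EpiLC chromatin library 3 the median was 0.24 and Canx was not called, and Sec23a was not with quantile normalization. In cholesterol and lipid synthesis 2 of 31 were higher, the enzymes Msmo1 (1.25) and Ebp (1.23), and 3 were lower, the regulators Srebf1 (-1.27) and Srebf2 (-1.58) and the fatty acid synthase Fasn (-1.37). Fasn and Srebf1 fell under the threshold with the length and GC correction, and Ebp without EpiLC chromatin library 3 and with quantile normalization. Of 23 glycolysis genes 2 were higher, Ldhb and the lactate transporter Slc16a1 (1.49), and 0 were lower (8 and 3 at an unadjusted p under 0.05).

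Among cytoskeletal genes and targets of SRF 2 of 33 were higher, the tubulin Tubb2b (1.32) and the intermediate filament Vim (1.09), and 5 were lower, among them the actin Actg1 (-1.51), profilin Pfn1 (-1.22) and Srf itself (-1.01). Vim and Srf were called neither after the length and GC correction nor with quantile normalization, and Tubb2b was not with the second. Of 30 adhesion and matrix genes 2 were higher, Cdh3 (1.38) and Cldn4 (1.31). The 3 lower ones were the integrin Itga3 (-1.89), the desmosomal Dsp (-1.37) and the laminin Lama5 (-1.16). Without EpiLC chromatin library 3 this list had 0 higher and 7 lower calls. Lama5 was not called after the correction or with quantile normalization, and Itga3 was not with the second. Translation factors had 1 higher and 4 lower of 63, with Eif4g3, a scaffold of cap-dependent initiation, at -1.62. Of 45 cell cycle and mitosis genes 0 were higher and 3 lower (6 and 13 at an unadjusted p under 0.05), namely Mki67 (-1.52), Incenp (-1.35) and Cenpe (-1.34), a chromosome coat protein, a centromere protein and a kinetochore motor.

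The core pluripotency list had 1 higher and 3 lower of 20, DNA methylation genes 1 and 2 of 16, mitochondrial ribosomal proteins 1 and 0 of 78, heat shock chaperones 0 and 1 of 29, nuclear pore and export genes 0 and 1 of 37, nuclear respiratory chain genes 2 and 1 of 89, housekeeping genes 2 and 2 of 19, and zinc finger genes with Zfp names 7 and 7 of 331. At an unadjusted p under 0.05 in limma the core list had 3 higher and 8 lower, and DNA methylation genes 1 and 9. Mitochondrial ribosomal proteins had 17 and 4, heat shock chaperones 11 and 2, and nuclear pore and export genes 6 and 14. Nuclear respiratory chain genes had 20 and 3, housekeeping genes 7 and 2, and Zfp genes 70 and 48. Without EpiLC chromatin library 3, DNA methylation genes had 1 higher and 0 lower calls. Proteasome (36 tested), ribosome biogenesis (36), p53 target (19) and snoRNA host genes (13) had 0 calls in either direction. At an unadjusted p under 0.05 in limma they had 13 higher and 1 lower, 9 and 6, 1 and 6, and 2 and 4. Over all genes 19.7% were higher and 22.9% lower at that p. Genes with clone-type names had 49 higher and 88 lower of 1098. Marker lists of other cells gave 1 higher call, Apoe (1.78), in primitive endoderm, and lower calls on Eomes in trophectoderm and on Col5a1 (-1.29; not called after the correction) in fibroblasts and feeders.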
